A study of Mus musculus with 4 samples.

Results

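Glycolysis and lactate metabolism genes were followed in C2C12 cells, a mouse myoblast line, after transfection with wild-type or K97E lamin A. The set held 34 genes. Most carry glucose into the cell, turn it into pyruvate or regulate that conversion, interconvert pyruvate and lactate, or move lactate across the membrane. Others control the entry of pyruvate into the citric acid cycle, and Hif1a encodes part of a transcription factor. Members were taken by gene symbol from the deposited transcript files and matched 35 gene records of 55416, since Aldoa had 2 records. Of these records 32 reached a mean of 0.5 TPM (transcripts per 1000000, a level corrected for transcript length) and were tested among 16304 genes. The rule for the 34 genes uses no measured value, although the genes were proposed with earlier results of these data known.

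There were 2 libraries of cells given wild-type lamin A and 2 of cells given K97E lamin A, the form that the submitters describe as a dilated cardiomyopathy mutant. Both groups received 3 µg of DNA by lipofection and were collected 24 h later, and both were grown with 0.3% glucose and 10% serum. The cells kept their own Lmna gene, the share of cells that took up the DNA is not stated in the labels, and untransfected cells were not analysed here. The labels call the libraries biological replicates without naming separate cultures or transfections, so the p-values measure the spread between these libraries, which may be technical. The titles of the K97E samples print the cell name as C1C12, while their cell line label reads C2C12.

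Glycolysis splits glucose into pyruvate and yields ATP without oxygen. Lactate dehydrogenase then returns the NADH made on the way to NAD+ by reducing pyruvate to lactate, which monocarboxylate transporters carry out of the cell. Most steps can be run by several related enzymes, and muscle cells exchange some of them as they differentiate from dividing myoblasts into fibres.

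Coverage was equal to 89600000 and 106400000 reads of 100 bases in wild-type replicates 1 and 2 and to 115600000 and 107800000 in the K97E replicates, so both K97E libraries were deeper. Of 8 myoblast markers 7 reached a mean of 0.5 TPM, with the intermediate filament gene Des at 384 to 467 TPM and Pax7 at or near 0. Among them Myod1, Des, Chrna1 and Vcam1 had lower values in both K97E libraries than in both wild-type libraries. After scaling between libraries 16.8% of all genes tested did so. Log2 differences of these markers were -0.14, -0.20, -0.37 and -0.44 (limma adjusted p = 0.965 for each), and their part in the results below was not tested. Unadjusted limma p-values were 0.31, 0.12, 0.0074 and 0.0096 in that order. For Myf5, Cdh15 and Itga7 the groups overlapped. Of 10 markers of differentiated muscle in the files 2 reached a mean of 0.5 TPM, Mymk and Actn3, and Myog stood at 0.0958 TPM or less. Their summed level was 25.8 TPM in wild-type replicate 2 and 10.9 to 12.9 TPM in the other libraries. Of 4 fibroblast markers 3 reached 0.5 TPM, with the collagen gene Col1a1 at 214 to 245 TPM and Lum listed at 0. Leukocyte, endothelial, epithelial and neural lists had 1, 1, 0 and 1 markers above that level, namely Cd68 at 3.17 to 5.48 TPM, Cdh5 at 17.1 to 20.3 TPM and Tubb3 at 4.17 to 6.52 TPM, while Adgre1, Cd3e, Kdr, Cdh1 and Snap25 were listed at 0 in all libraries. Lmna measured 558 and 596 TPM in wild type and 660 and 629 TPM in K97E. The species of the transfected lamin A DNA is not stated in the labels. Whether its transcripts are counted together with the cells' own therefore cannot be told. The wild-type libraries correlated at 0.9849 with each other, below every other pair (0.9866 to 0.9911). Wild-type replicate 1 had 7.37% of its TPM on mitochondrial genes against 5.30% to 5.55% in the others.

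None of the 32 tested records differed between K97E and wild-type lamin A in the limma fit over all genes with Benjamini-Hochberg adjustment. Over all 16304 genes 1 was called, a background of 0.00613%. At an unadjusted p under 0.05 there were 0 members, where 600 genes or 3.68% of all genes lay. Of the members 16 had a higher and 16 a lower mean with K97E, and their median log2 difference was -0.0024 beside -0.0017 for all genes tested. With TPM as deposited, before scaling between libraries, 24 of the 32 had the higher mean in K97E, as did 63.4% of all genes tested, whose median moved to 0.05. Log2 differences here are K97E minus wild type on scaled TPM with 0.5 added, which understates the change of low genes. In bulk RNA, a change in the share of cells of one kind and a change in RNA per cell cannot be told apart.

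The groups did not overlap for 2 members with higher values in K97E, Pfkfb4 and the second Aldoa record, beside a background of 16.3% of all genes. They did not overlap for 7 members with lower values, Hk1, Pfkp, Pfkfb1, Gapdh, Ldhb, Slc16a1 and Hif1a, beside 16.8% of all genes. These counts use values after scaling between libraries, and in deposited TPM the groups overlapped for Hk1, Pfkp, Pfkfb1, Slc16a1 and Hif1a. The 95% intervals of the members, not adjusted for the number of genes, included 0 for each of the 32 records. For 30 of them the interval lay inside a 2-fold difference in either direction, so a larger change lay outside the interval. The exceptions were Gapdh and the second Aldoa record.

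**Figure D1:**
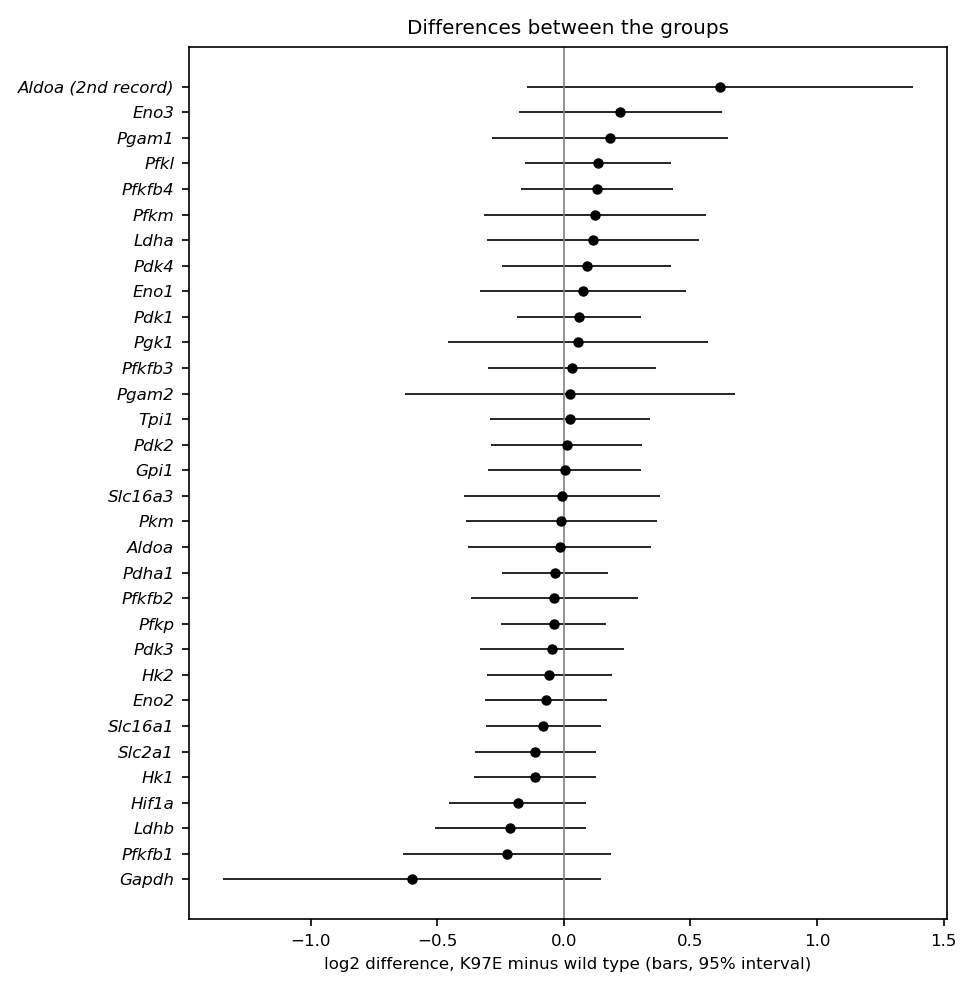
Log2 difference between K97E and wild-type lamin A for each tested member record, with its 95% interval from limma (2 libraries a group). Each interval crosses 0, and the widest belong to Gapdh, at -0.60, and the second Aldoa record, at 0.61.

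Transcript levels of the members together made up 1.22% and 1.40% of TPM with wild-type lamin A, beside 1.47% and 1.28% with K97E. The groups overlapped, since K97E replicate 2 lay between the wild-type libraries. These shares leave out TPM credited to near-identical copies elsewhere in the genome, described below. Such copies held 3901 to 4406 TPM for Gapdh and 1567 to 2200 TPM for Eno1. Levels spread over more than 4 orders on a log10 axis, from glucose transporter genes that were barely detected to Pkm.

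**Figure D2:**
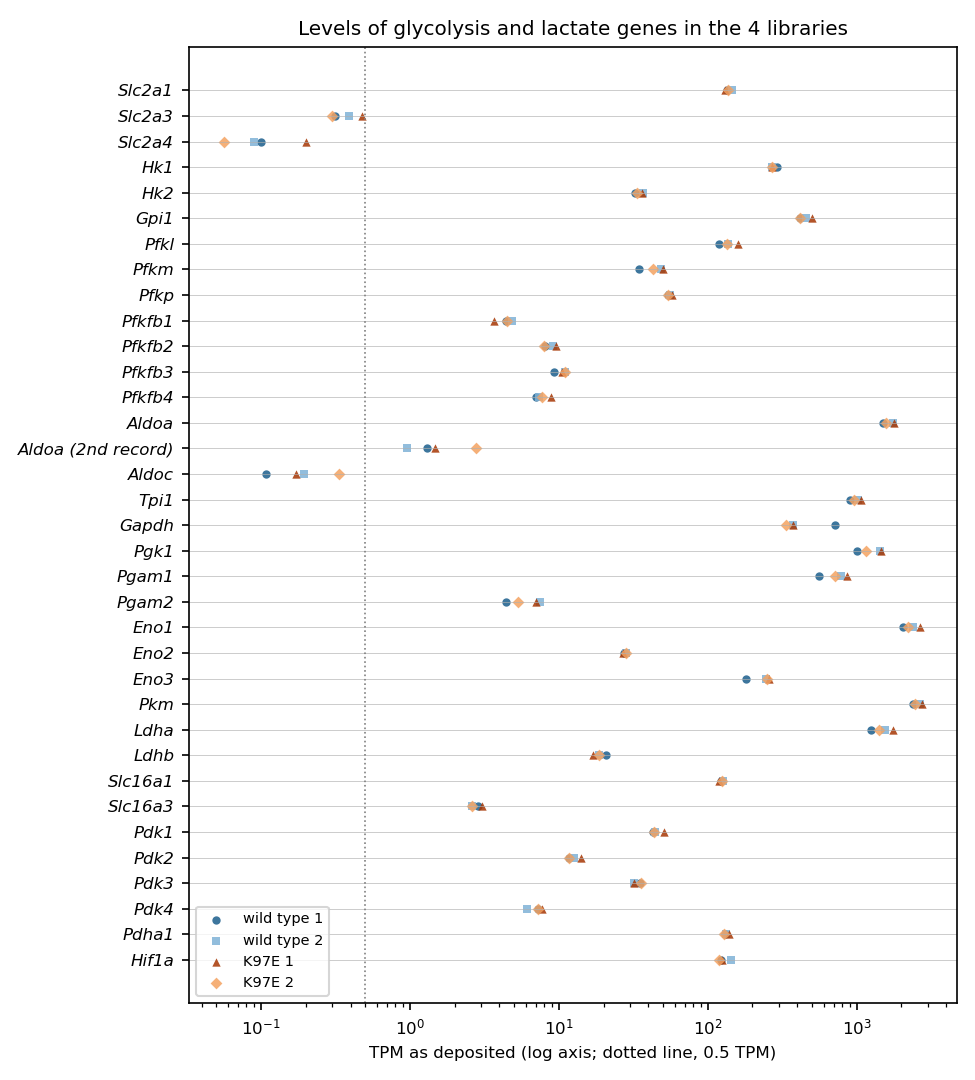
Deposited TPM of the 35 member records in the 4 libraries on a log axis, ordered along the pathway, with the 0.5 TPM limit for testing as a dotted line. Slc2a3, Slc2a4 and Aldoc lie below the limit, and the libraries of Gapdh split into 716 TPM in wild-type replicate 1 and 338 to 373 TPM in the others.

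Among the members for glucose entry 1 transporter gene and 1 hexokinase gene held most of the transcript level. Paired values are of wild-type replicates 1 and 2, then of K97E replicates 1 and 2. Slc2a1, which encodes the basal glucose transporter GLUT1, measured 134 and 145 TPM in wild type and 132 and 137 TPM in K97E. The groups overlapped, and the log2 difference was -0.11. Slc2a3 (GLUT3) stood at 0.299 to 0.474 TPM and Slc2a4, the insulin-responsive transporter GLUT4 of mature muscle and fat, at 0.0563 to 0.200 TPM, so neither was tested. Slc2a1 held at least 99.5% of the TPM of these 3 genes in every library. Outside the members, Slc2a8 and Slc2a6 reached 3.81 to 7.42 TPM and 2.07 to 2.80 TPM.

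Hexokinases trap glucose in the cell as glucose 6-phosphate. Hk1, the form found in most tissues, measured 292 and 270 TPM in wild type and 269 and 271 TPM in K97E. Wild-type replicate 1 was the high library, the other 3 lay within 2 TPM of each other, and the log2 difference was -0.11. Hk2, the form of muscle and of many fast-growing cells, gave 32.7 and 36.7 TPM, then 36.0 and 33.3 TPM, with a log2 difference of -0.06. Hk1 held 88.1% to 89.9% of the TPM of both genes. Exons of Slc2a1 and Hk1 overlap those of antisense genes (Gm12868 and Hk1os), and no strand option stands in the authors' counting command. Such overlaps with another measured gene held for 13 of the 32 records, whose levels are to that extent uncertain.

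In the upper pathway Gpi1, which turns glucose 6-phosphate into fructose 6-phosphate, measured 415 and 458 TPM in wild type and 500 and 414 TPM in K97E. Its libraries interleaved and the log2 difference was 0.0029. Phosphofructokinase commits the sugar to glycolysis, and its 3 genes were all present. Pfkl, the liver-type subunit and here the leading one, gave 120 and 138 TPM, then 160 and 135 TPM. Group values were 129 ± 12.4 TPM and 147 ± 17.8 TPM (SD, n = 2 each), with a log2 difference of 0.14 (SE 0.12, 95% interval -0.15 to 0.42, adjusted p = 0.965 by limma). Without wild-type replicate 1 it was 0.04. Pfkm, the muscle-type subunit, gave 34.6 and 48.8 TPM, then 50.5 and 43.2 TPM, a log2 difference of 0.12 that was -0.12 without wild-type replicate 1. Pfkp, the platelet type, gave 54.4 and 55.6 TPM, then 57.4 and 54.0 TPM, a log2 difference of -0.04. Pfkl gave 56.9% to 59.7%, Pfkp 21.4% to 26.01% and Pfkm 16.6% to 20.2% of the phosphofructokinase TPM, and the order of the 3 genes was the same in every library.

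The 4 Pfkfb genes encode enzymes that make and break fructose 2,6-bisphosphate, the activator of phosphofructokinase. Their levels were close to each other and low. Pfkfb3, known for its high kinase activity, measured 9.27 and 11.01 TPM in wild type and 10.5 and 11.1 TPM in K97E, a log2 difference of 0.03. Pfkfb2, the heart form, gave 8.15 and 9.16 TPM, then 9.62 and 7.97 TPM, a log2 difference of -0.04. Pfkfb4, first known from testis, gave 6.99 and 7.38 TPM, then 8.83 and 7.67 TPM. For Pfkfb4 both K97E libraries lay above both wild-type libraries, and the log2 difference was 0.13. Pfkfb1, the form of liver and muscle, gave 4.40 and 4.88 TPM, then 3.66 and 4.47 TPM, a log2 difference of -0.23 that was -0.07 without K97E replicate 1. Exons of Pfkfb1 overlap those of Apex2 on the other strand.

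Aldolase splits fructose 1,6-bisphosphate, and nearly all of its TPM was Aldoa. Aldoa measured 1496 and 1745 TPM in wild type and 1770 and 1564 TPM in K97E, a log2 difference of -0.02. The second Aldoa record (ENSMUSG00000114515, GRCm39 chromosome 7, 126399962 to 126408280, minus strand) lies just upstream and gave 1.31 and 0.955 TPM, then 1.48 and 2.80 TPM. Its group values were 1.13 ± 0.250 TPM and 2.14 ± 0.927 TPM (SD, n = 2 each), and its log2 difference was 0.61 (SE 0.31, 95% interval -0.15 to 1.38, limma adjusted p = 0.965). K97E replicate 2 was the high library, and without it the difference was 0.22. Aldoc, the brain form, stood at 0.108 to 0.335 TPM and was not tested. Tpi1, which interconverts the triose phosphates, gave 899 and 1019 TPM, then 1073 and 957 TPM, a log2 difference of 0.02.

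In the lower pathway, where ATP and NADH are gained, 6 of the 8 genes were lowest in wild-type replicate 1 after scaling. Pgk1, the first ATP-forming enzyme, measured 1005 and 1429 TPM in wild type and 1448 and 1163 TPM in K97E. Its log2 difference was 0.06, and it turned to -0.20 without wild-type replicate 1 and to -0.07 without K97E replicate 1. Pgam1, which encodes the general phosphoglycerate mutase, gave 561 and 781 TPM, then 857 and 713 TPM, a log2 difference of 0.18 that was -0.06 without wild-type replicate 1. The muscle form Pgam2 gave 4.41 and 7.50 TPM, then 7.04 and 5.31 TPM, a log2 difference of 0.03. Pgam1 was 104.2 to 134.2 times as high as Pgam2 by TPM.

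The 3 enolase genes make phosphoenolpyruvate. Eno1, the form of most dividing cells, measured 2045 and 2408 TPM in wild type and 2660 and 2227 TPM in K97E, a log2 difference of 0.08. Eno2, the neuronal form, gave 27.6 and 28.2 TPM, then 26.95 and 28.33 TPM, a log2 difference of -0.07. Eno3 (ENSMUSG00000060600, GRCm39 chromosome 11, 70548028 to 70553339, plus strand) is the form that takes over in muscle fibres. It gave 180 and 246 TPM, then 259 and 252 TPM, or 213 ± 46.9 TPM and 256 ± 5.14 TPM (SD, n = 2 each). Its log2 difference was 0.22 (SE 0.16, 95% interval -0.18 to 0.63, limma adjusted p = 0.965). Wild-type replicate 1 was the only low library, and without it the difference was -0.0026. Eno1 held 88.8% to 90.8% and Eno3 7.98% to 10.1% of the enolase TPM.

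Gapdh (ENSMUSG00000057666, GRCm39 chromosome 6, 125138678 to 125143430, minus strand) encodes the dehydrogenase that produces NADH and is often used as a reference gene. It had the largest lower difference among the members. It measured 716 and 373 TPM in wild type and 373 and 338 TPM in K97E. Wild-type replicate 1 was high, while wild-type replicate 2 and K97E replicate 1 were alike. The group values were 545 ± 243 TPM and 355 ± 24.7 TPM (SD, n = 2 each), and the log2 difference was -0.60 (SE 0.30, 95% interval -1.34 to 0.15, limma adjusted p = 0.965). Leaving out wild-type replicate 1 gave -0.13, and leaving out replicate 2 of that group gave -1.07. Much of the high value lay in ENSMUST00000147954, a 2-exon transcript at the 3′ end named after its values were seen. It gave 397 and 128 TPM in wild type and 122 and 117 TPM in K97E. The 7-exon ENSMUST00000118875 gave 285 and 186 TPM, then 157 and 165 TPM. Coverage of an inner exon (125139441 to 125139671), not scaled for depth, was 147 and 151 reads per base, then 157 and 140. Wild-type replicate 1 was the least deep library (89600000 reads against 106400000 to 115600000), so these values do not rank the libraries.

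Reads of Gapdh can be shared with near-identical copies elsewhere in the genome, so its own value is uncertain. A search of the coding sequence against mouse transcripts found 78 other genes with at least 95% identity over at least 100 bases, 76 of them annotated as pseudogenes. Their TPM summed to 3901 and 4406 with wild-type lamin A and to 4367 and 3966 with K97E, many times the level of Gapdh. The copies held 84.5% of the joint TPM in wild-type replicate 1 and 92.1% to 92.2% in the other libraries. Gapdh together with its copies gave 4618 and 4779 TPM, then 4740 and 4304 TPM, which overlapped, and the log2 difference of the sum was -0.11. The largest single copy, the pseudogene Gm13394, gave 1566 and 1513 TPM, then 1511 and 1365 TPM.

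Copies held smaller shares for the other enzymes. For Eno1 3 copies, led by the pseudogene Gm4735 and including Eno1b, held 43.4% to 46.0% of the joint TPM, and the log2 difference of the sum was 0.10. For Pgam1 the pseudogene Pgam1-ps2 held 19.6% to 23.2%, and for Pgk1 4 pseudogenes held 11.7% to 12.96%. The share was 4.64% to 5.80% for Tpi1 and 4.39% to 4.68% for Pkm, and it stayed under 1% for Gpi1 and Ldha. For Pkm the 113 to 127 TPM counted as copies included Gm49759, at 60.2 to 63.0 TPM. Its exons overlap those of Pkm on the same strand, so it is not a copy elsewhere in the genome. How many of these reads came from the genes themselves cannot be told from the deposited values, so the levels of Gapdh, Eno1, Pgam1 and Pgk1 are uncertain by these shares.

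**Figure D3:**
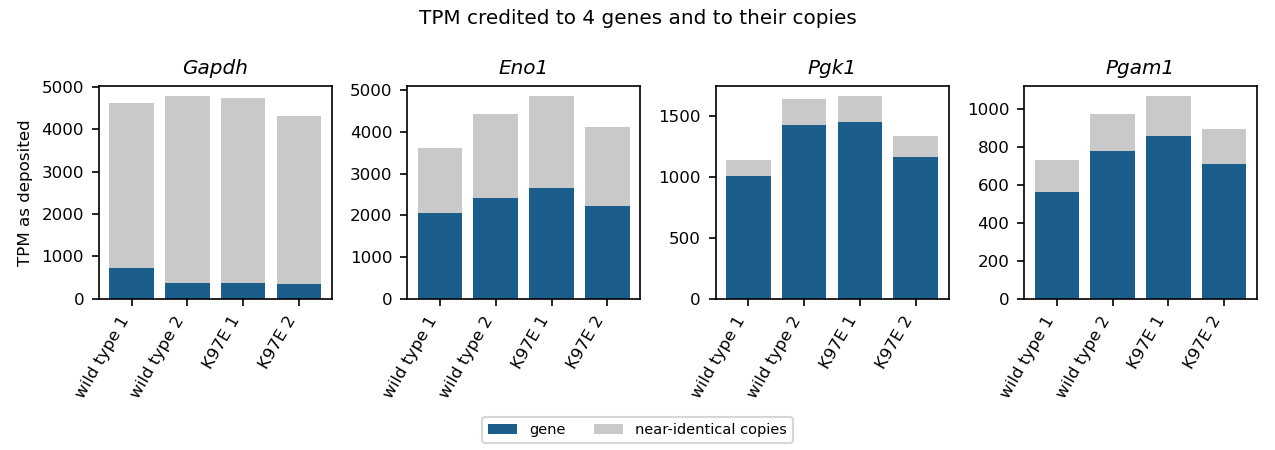
Deposited TPM credited to Gapdh, Eno1, Pgk1 and Pgam1 (blue) and to their near-identical copies (grey), stacked for each library, with a separate axis from 0 for each gene. The blue part of Gapdh is 716 TPM in wild-type replicate 1 and at most 373 TPM in the others, while the stacked sum lies between 4304 and 4779 TPM.

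Pkm (ENSMUSG00000032294, GRCm39 chromosome 9, 59563651 to 59586658, plus strand) encodes pyruvate kinase, the last ATP-forming step. It had the highest mean TPM credited to a member itself. With copies added, Gapdh (4304 to 4779 TPM) and Eno1 (3611 to 4860 TPM) stood above Pkm (2492 to 2879 TPM), so the ranking is uncertain. Pkm itself measured 2379 and 2683 TPM in wild type and 2752 and 2481 TPM in K97E, or 2531 ± 215 TPM and 2617 ± 192 TPM (SD, n = 2 each). The groups overlapped, with a log2 difference of -0.01 (SE 0.15, adjusted p = 0.996 by limma). The gene holds a pair of exons of equal length of which each transcript keeps 1. One gives the M1 form of adult muscle, which is constantly active, and the other the M2 form of proliferating cells, whose activity is regulated. The exons are shown because they are the only coding difference between the forms and so carry the measurement of the M1 share. They are printed 5′ to 3′ from the GENCODE M21 transcripts of the same IDs, with the bases that differ between them in capitals. The M1 exon is exon 9 of ENSMUST00000163694 at chr9:59582312-59582478 and the M2 exon is exon 9 of ENSMUST00000034834 at chr9:59582851-59583017, both GRCm39, plus strand.
M1 exon: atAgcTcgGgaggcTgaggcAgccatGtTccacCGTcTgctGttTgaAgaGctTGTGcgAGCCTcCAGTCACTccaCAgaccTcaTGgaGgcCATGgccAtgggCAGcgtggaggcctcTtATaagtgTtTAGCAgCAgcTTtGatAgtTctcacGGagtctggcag
M2 exon: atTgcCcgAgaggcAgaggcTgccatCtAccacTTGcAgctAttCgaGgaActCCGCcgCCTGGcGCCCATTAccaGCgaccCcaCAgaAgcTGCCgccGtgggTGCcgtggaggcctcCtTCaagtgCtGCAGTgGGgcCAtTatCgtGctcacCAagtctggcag
Each is 167 bases long, and 103 bases or 61.7% are identical and 64 differ.

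Myoblasts of both groups made chiefly the M2 form. ENSMUST00000034834 (M2) measured 2152 and 2434 TPM in wild type and 2505 and 2269 TPM in K97E, and ENSMUST00000163694 (M1) gave 82.3 and 158 TPM, then 160 and 128 TPM. The log2 difference was 0.27 for M1 (SE 0.36, adjusted p = 0.961 by limma) and 0.0010 for M2 (SE 0.10, adjusted p = 1.00 by limma). The M1 share of both forms was 3.69% and 6.10% with wild-type and 6.01% and 5.34% with K97E. Wild-type replicate 1 was low, the other 3 libraries lay within 1 percentage point of each other, and the groups overlapped. The mean share was 4.89 ± 1.71% and 5.67 ± 0.472% (SD, n = 2 each). Without wild-type replicate 1 the M1 log2 difference was -0.20.

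Coverage of the alternative exons, whose sequences are given above, gave the same order of libraries within the wild-type group and higher M1 shares. Deposited coverage of the M1 exon was 312 and 1044 reads per base with wild-type and 1273 and 826 with K97E. The M2 exon had 4940 and 7559 and then 8608 and 7579 reads per base. The M1 share of exon coverage was thus 5.93% and 12.1% with wild-type and 12.9% and 9.83% with K97E, or 9.03 ± 4.39% and 11.4 ± 2.16% (SD, n = 2 each). Its difference between groups was 2.32 percentage points against 0.779 by TPM, and with 2 libraries a group an exact permutation test cannot go below p = 0.333.

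**Figure D4:**
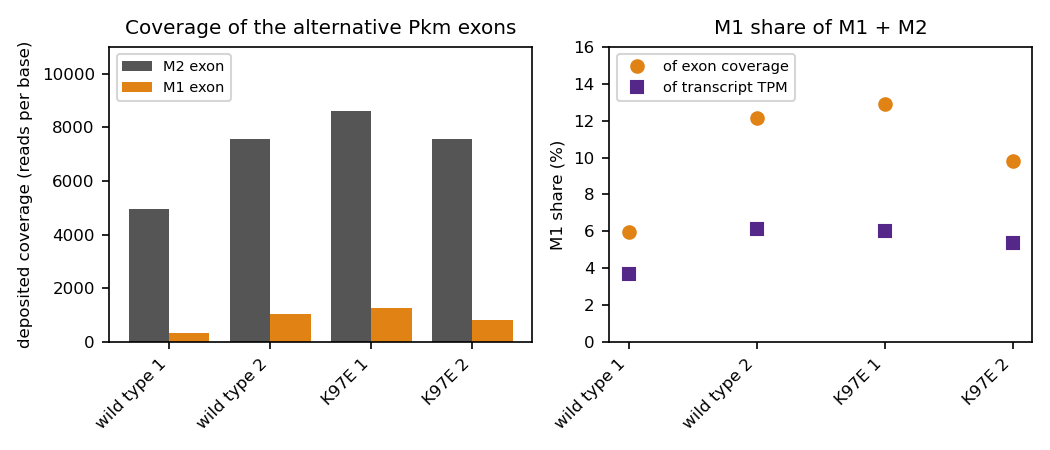
Left, deposited coverage of the alternative M2 (grey) and M1 (orange) exons of Pkm in each library; right, the M1 share of both, by exon coverage (circles) and by transcript TPM (squares). Wild-type replicate 1 has the lowest share by either measure, at 5.93% and 3.69%, and the remaining wild-type library lies among the K97E libraries or above them.

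Among lactate dehydrogenases 1 gene led by transcript level, as among glucose transporters. Ldha (ENSMUSG00000063229, GRCm39 chromosome 7, 46490899 to 46505051, plus strand), the subunit that favours pyruvate reduction to lactate, measured 1251 and 1552 TPM in wild type and 1744 and 1417 TPM in K97E. That is 1402 ± 213 TPM and 1580 ± 231 TPM (SD, n = 2 each), with overlapping groups and a log2 difference of 0.12 (SE 0.17, 95% interval -0.30 to 0.53, limma adjusted p = 0.965). The difference turned to -0.04 when wild-type replicate 1 was left out and to -0.0018 when K97E replicate 1 was. Ldhb (ENSMUSG00000030246, GRCm39 chromosome 6, 142435975 to 142453683, minus strand), the heart-type subunit, gave 20.9 and 18.8 TPM, then 16.9 and 18.6 TPM. Both K97E libraries lay below both wild-type libraries, at 19.8 ± 1.52 TPM against 17.8 ± 1.23 TPM (SD, n = 2 each). The log2 difference was -0.21 (SE 0.12, 95% interval -0.51 to 0.09, limma adjusted p = 0.965), and without K97E replicate 1 it was -0.11. Ldha was 59.8 and 82.7 times as high as Ldhb with wild-type and 103 and 76.0 times with K97E, ratios that overlapped between the groups.

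Lactate leaves through proton-linked transporters. Slc16a1, which encodes the widely expressed MCT1, measured 123 and 126 TPM in wild type and 120 and 125 TPM in K97E, with a log2 difference of -0.08 (SE 0.09, adjusted p = 0.965 by limma). Slc16a3, which encodes the exporter MCT4 of glycolytic muscle, gave 2.87 and 2.60 TPM, then 3.04 and 2.63 TPM, with a log2 difference of -0.0077 (SE 0.15, adjusted p = 0.998 by limma). The sign for Slc16a3 was positive with TPM as deposited, quantile normalization, FPKM and voom. A transcript of 395 bases, ENSMUST00000140467, held 43.4% to 58.6% of its TPM and differed by -0.19 (SE 0.24, adjusted p = 0.960 by limma). The 4335-base ENSMUST00000168579 differed by 0.32 (SE 0.21, adjusted p = 0.958 by limma). Both were named after their values were seen. Exons of Slc16a3 overlap those of Csnk1d on the other strand. Slc16a1 held 97.5% to 98.0% of the TPM of both. Bsg, the membrane partner that both transporters need, gave 836 and 1026 TPM, then 1018 and 829 TPM, with a log2 difference of -0.07.

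Pyruvate dehydrogenase admits pyruvate to the citric acid cycle, and the Pdk kinases shut it off. Its catalytic subunit gene Pdha1 measured 130 and 133 TPM in wild type and 139 and 129 TPM in K97E, a log2 difference of -0.04. Pdk1, the kinase best known as a hypoxia target, led the family at 42.9 and 44.1 TPM, then 51.3 and 43.5 TPM, with a log2 difference of 0.06 (SE 0.10, adjusted p = 0.965 by limma). Pdk3 came next at 34.9 and 32.1 TPM, then 31.9 and 35.6 TPM, with -0.05 (SE 0.11, adjusted p = 0.980 by limma). In all 4 libraries Pdk2, the broadly expressed form, came after these, at 11.7 and 12.7 TPM, then 14.01 and 11.70 TPM, with 0.01 (SE 0.12, adjusted p = 0.995 by limma). Pdk4, induced by fasting in muscle, was lowest at 7.30 and 6.14 TPM, then 7.70 and 7.23 TPM, with 0.09 (SE 0.13, adjusted p = 0.965 by limma). The shares of the 4 kinases in their summed TPM were 44.4% to 48.9% for Pdk1, 30.4% to 36.3% for Pdk3, 11.9% to 13.4% for Pdk2 and 6.46% to 7.54% for Pdk4.

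Hif1a (ENSMUSG00000021109, GRCm39 chromosome 12, 73948149 to 73994304, plus strand) encodes the oxygen-regulated subunit of a transcription factor that switches on many glycolytic genes when oxygen is low. That control acts mainly on protein stability, which RNA does not show. Hif1a measured 123 and 144 TPM in wild type and 125 and 119 TPM in K97E, or 133 ± 15.3 TPM and 122 ± 4.53 TPM (SD, n = 2 each). After scaling both K97E libraries lay below both wild-type libraries, with wild-type replicate 2 the high one. The log2 difference was -0.18 (SE 0.11, 95% interval -0.45 to 0.09, limma adjusted p = 0.965), and without wild-type replicate 2 it was -0.07.

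The factor binds the letters ACGTG or GCGTG, and promoters of the members were searched for them on both strands, counting overlapping matches, in the 250 bases before each RefSeq start (build GRCm38.p6). RefSeq held 51 such windows for 32 of the members. Of these windows 38 or 74.5% held at least 1 match and 20 or 39.2% at least 2, where 38.6% and 16.7% of all 32851 windows did. The base composition of the windows was not matched, and a match is a description of letters, not of binding. The relation of matches to the differences between libraries was not tested. The windows of Ldha and Pgk1, textbook targets of the factor, are printed 5′ to 3′ as examples, with the matches in capitals. They lie at chr7:46845554-46845803 and chrX:106186850-106187099, both on the plus strand of GRCm38.p6.
Ldha: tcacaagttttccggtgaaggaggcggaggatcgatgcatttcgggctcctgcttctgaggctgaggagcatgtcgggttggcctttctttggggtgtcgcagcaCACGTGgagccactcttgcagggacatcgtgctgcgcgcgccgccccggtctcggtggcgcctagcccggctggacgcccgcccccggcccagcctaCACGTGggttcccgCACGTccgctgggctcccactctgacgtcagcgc
Pgk1: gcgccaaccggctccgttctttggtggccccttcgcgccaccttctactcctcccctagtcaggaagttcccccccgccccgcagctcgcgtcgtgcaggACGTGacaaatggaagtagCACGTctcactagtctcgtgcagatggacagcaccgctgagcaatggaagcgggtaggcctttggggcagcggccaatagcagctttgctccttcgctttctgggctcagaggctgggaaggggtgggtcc
This Ldha window held 5 matches, since CACGTG reads the same on both strands and counts on each, and the Pgk1 window held 2. A second Ldha window at chr7:46846832-46847081 held 1 match and is not printed.

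Libraries of the same group differed in the same direction for many of the members. After scaling, 25 of the 32 records (78.1%) were higher in wild-type replicate 2 than in wild-type replicate 1, against 50.3% of all genes tested. The median gap was 0.14 on the log2 scale for members and 0.0019 for all genes. In the K97E group 22 records (68.8%) were higher in replicate 1 than in replicate 2, against 50.1% of all genes, with a median gap of 0.08. In wild-type replicate 1 lay the lowest value of 14 records (43.8%, against 33.2% of all genes) and in wild-type replicate 2 the highest value of 16 (50.0%, against 21.6%). Among the roles the lower pathway showed the widest spread, with a median wild-type gap of 0.34 and 7 of its 8 genes higher in replicate 2, Gapdh being the exception. Pgk1 differed by 0.51, Pgam1 by 0.48, Pgam2 by 0.71 and Eno3 by 0.45 between the wild-type libraries. Between groups 3 of the 32 members (9.38%) differed by more than both within-group gaps, against 19.8% of all genes tested. Mitochondrial and muscle-marker shares also differed between the wild-type libraries, as given above, and their part in these gaps was not tested.

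**Figure D5:**
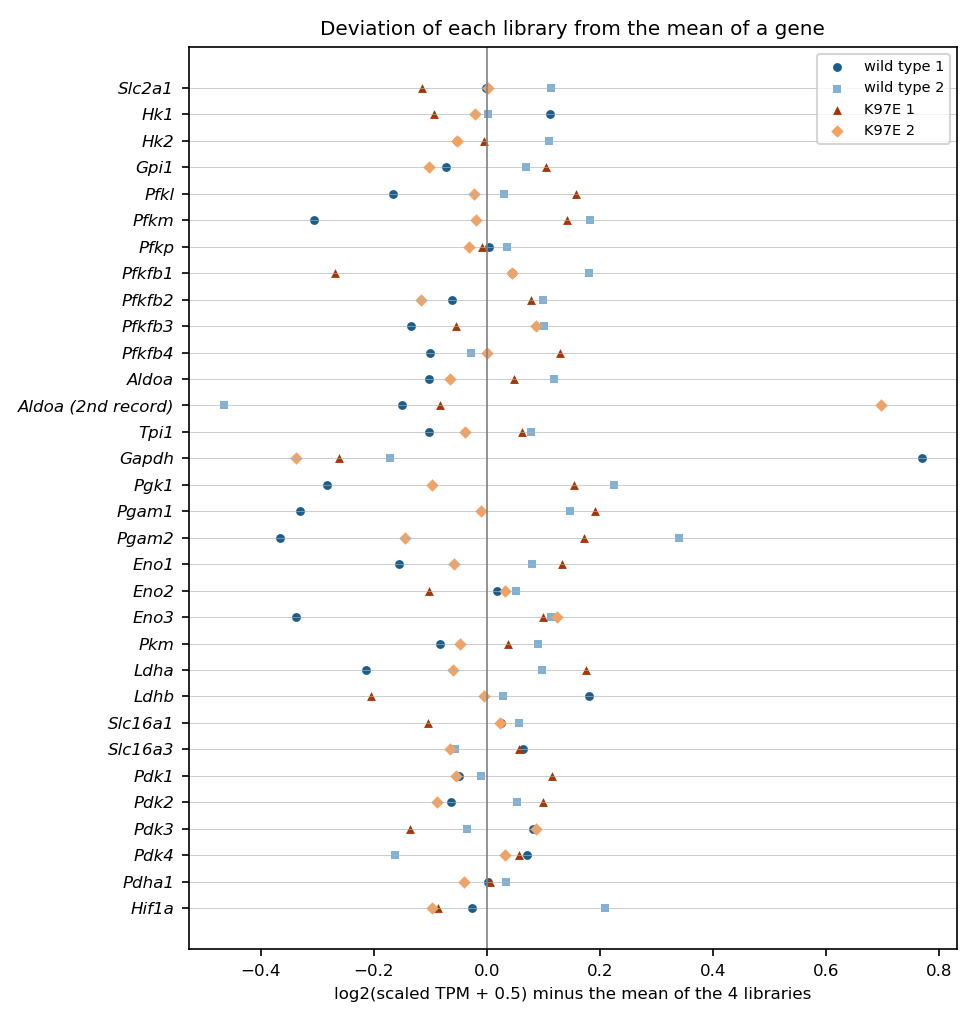
Deviation of each library from the mean of a record, on log2 of scaled TPM plus 0.5, for the 32 tested records in pathway order. Wild-type replicate 1 (dark blue circles) lies on the low side for most upper and lower pathway genes and on the high side for Gapdh, at 716 TPM.

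Transcripts of the members were tested with limma as well. Of 284 member transcripts 129 reached 0.5 TPM on average, and none was called, as none was among all 38950 transcripts tested (0.0%). An unadjusted p under 0.05 was found for 3 of the 129 and for 1793 of all transcripts (4.6%). The smallest was ENSMUST00000149610, a shorter annotated transcript of Tpi1, named here after its values were seen. It measured 22.9 and 30.9 TPM in wild type and 86.6 and 73.1 TPM in K97E, with a log2 difference of 1.50 (SE 0.20, adjusted p = 0.405 by limma). The groups did not overlap, for which no share over all transcripts was counted, while the whole gene differed by 0.02. Other Tpi1 transcripts were divided unevenly between libraries. ENSMUST00000172132 gave 503 and 528 TPM, then 562 and 105 TPM, and ENSMUST00000154883 gave 62.3 and 148 TPM, then 182 and 395 TPM. The other 2 transcripts at an unadjusted p under 0.05 were ENSMUST00000207534 of the second Aldoa record and ENSMUST00000132157 of Ldha. ENSMUST00000207534 gave 0.263 and 0.474 TPM, then 1.18 and 2.58 TPM, a log2 difference of 1.37. The only other transcript of that record, ENSMUST00000153686, has the same start and end. It went the other way, at 1.05 and 0.481 TPM, then 0.304 and 0.220 TPM, a log2 difference of -0.72.

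Transcripts with different starts divided the total of some genes unevenly between libraries. For Hif1a, ENSMUST00000021530 measured 110 and 46.1 TPM in wild type and 47.0 and 39.3 TPM in K97E. Its counterpart ENSMUST00000110461 gave 9.73 and 96.9 TPM, then 77.2 and 78.7 TPM, so wild-type replicate 1 alone had the split reversed. For Ldha, ENSMUST00000048209 gave 856 and 868 TPM, then 1502 and 748 TPM, and ENSMUST00000209984 gave 378 and 617 TPM, then 212 and 650 TPM, with the widest split in K97E replicate 1. These transcript values are model estimates that divide reads among overlapping transcripts, and the pairs were chosen after their values were seen.

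Genes next to the pathway were compared through 11 lists of 106 entries, of which 103 were in the files and 79 were tested. None was called, 37 had a higher mean with K97E and the median log2 difference was -0.0050. Of all genes tested 49.5% had a higher mean with K97E after scaling, and 63.4% with TPM as deposited. The only list gene at an unadjusted p under 0.05 was Vegfa, the vascular growth factor and a hypoxia target. It measured 128 and 119 TPM with wild-type and 110 and 108 TPM with K97E. Its log2 difference was -0.23 (SE 0.09, adjusted p = 0.965 by limma). Among other targets of the hypoxia factor 3 of 14 had a higher value in K97E, with a median of -0.10, and Ero1a, an oxidase of protein folding, differed by -0.16. Among the factor's partners and oxygen sensors 5 of 6 had a higher value, with Egln2, a prolyl hydroxylase, at 0.15 and Arnt, the partner subunit, at -0.11.

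Genes that lead pyruvate into the mitochondrion included the one with the largest value on the higher side of its list. Mpc2, a subunit of the mitochondrial pyruvate carrier, measured 18.7 and 20.95 TPM in wild type and 23.9 and 25.6 TPM in K97E, with a log2 difference of 0.26 (SE 0.11, adjusted p = 0.965 by limma). Mpc1, the carrier's other subunit, went the other way, at 51.3 and 56.9 TPM, then 46.1 and 56.0 TPM. Its log2 difference was -0.15 (SE 0.14, adjusted p = 0.965 by limma). Pdpr, a regulator of pyruvate dehydrogenase phosphatase, differed by 0.18, and 4 of the 10 genes of the list had a higher value. Shuttles that carry cytosolic NADH into the mitochondrion had higher values in 7 of 8 genes, with a median of 0.07, among them Gpd1l at 0.15 and Slc25a11 at 0.17. The groups did not overlap for 2 of the 8, Gpd1l and Slc25a12, beside 16.3% of all genes. In the serine branch, which leaves glycolysis at 3-phosphoglycerate, 5 of 5 genes had a higher value with a median of 0.08. Phgdh, its first enzyme, gave 233 and 238 TPM, then 252 and 302 TPM, a log2 difference of 0.17, and Shmt1 differed by 0.17. K97E replicate 2 was the highest library for each of these 5 genes. After scaling K97E replicate 1 was the lowest library for 4 of them, and the groups overlapped for all 5.

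The other side branches gave small differences too. In the pentose phosphate pathway 3 of 7 genes had a higher value, with Pgls at 0.16 and Rpia at 0.18, and in glycogen metabolism 5 of 8, with the phosphorylase gene Pygb at 0.19. Hexose entry and isoforms of other tissues had 5 tested genes of 19, with Slc2a6 at -0.33 and Slc2a8 at 0.38, while Pklr, Ldhc and Fbp1 stood at 0.0089 TPM or less. Of the lactate partners Emb differed by -0.13. Of 5 factors that act on Pkm splicing 1 had a higher value, with Hnrnpa2b1 at -0.11 and Rbm4 at -0.06, and each of the 5 was higher in wild-type replicate 1 than in wild-type replicate 2. Of 9 other regulators 2 had a higher value, with Txnip, a glucose-responsive inhibitor of glucose uptake, at -0.22.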

How the data were processed

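Per the file headers, the authors ran StringTie 2.1.7 on annotated transcripts only, with the Ensembl 104 annotation of GRCm39 and no strand option, although the labels' protocols name a stranded kit. DESeq2, FastQC, HISAT2 and SAMtools are listed in the submitters' processing notes, without their roles. The deposited files give coverage, FPKM and TPM for 142434 transcripts and coverage for each exon, and TPM sums to 1000000 in each library.

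Gene TPM was summed over transcripts, divided by median-of-ratios factors (0.98 to 1.04) and tested as log2 with a pseudocount of 0.5. Genes with mean TPM of at least 0.5 were fitted with limma 3.58.1 in R 4.3.3 (lmFit, eBayes with trend, 5.54 total degrees of freedom; 3.79 for transcripts), two-sided, with Benjamini-Hochberg adjustment over all genes and a threshold of 0.05. An exact permutation test cannot go below 0.333. TPM, SD and ratios are of deposited values. The fit was tested on simulated data with the real mean levels. Noise was independent between genes, with variances drawn from the distribution that limma itself had fitted. On these data the fit found 46 of 100 genes given a 2-fold change and 89 of 100 given a 4-fold change, and it called 11 of 16104 unchanged genes. The simulation held no shift shared by many genes of a library, so these counts may not hold for the real libraries.

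Members and lists were chosen with earlier results of these data known. Every member is named, with full statistics for the 3 smallest p in each direction and for Hif1a, Pkm, the lactate genes and the Pdk genes, and of each list the 2 genes with the smallest p. Some list genes selected by this rule are not reported here. Genes named beside these are examples or checks chosen after their values were seen. Copies were found with blastn 2.17.0 on GENCODE M21 coding sequences, matched by gene ID. Promoters are RefSeq's. Groups follow the genotype label. Replicate numbers are shared between groups, but the labels tie them to no common day or culture. The settings tried besides are named with their effect in the closing section. Figures were drawn with matplotlib 3.10.9.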

Additional observations from a re-analysis of the deposited data

How the results depend on the processing

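No member was called under any setting tried, which included pseudocounts of 0.1 and 1, no filter, a mean TPM of at least 5, other scalings, FPKM, eBayes without trend, voom on estimated reads, blocks, added copies and each library left out; the last leaves 1 library in a group that is assumed to vary like the others. Over all genes, 1 was called as reported, 2 with TPM as deposited, 2 with eBayes without trend, 0 with no filter, 5 with voom and 0 to 12 with a library left out (12 without wild-type replicate 1). With the replicate number as a block 0 genes were called, and no member changed its call. Deviations of same-numbered libraries correlated at -0.14, and a crossed block, added like the copies after seeing the data, called 30 genes and 0 members. The members' median log2 difference ran from -0.07 to 0.07 with a library left out, and 7 to 19 of the 32 had a higher value in K97E (7 without wild-type replicate 1, 19 without wild-type replicate 2 or K97E replicate 2, 9 without K97E replicate 1). With TPM as deposited 24 did, where the median of the members was 0.05.

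Signs turned under several settings. With TPM as deposited the difference was positive for Hk2 at 0.0002, Pfkp at 0.018, Pfkfb2 at 0.0177, Aldoa at 0.0417, Pkm at 0.0485, Slc16a3 at 0.0418, Pdk3 at 0.0092 and Pdha1 at 0.0223. Quantile normalization gave Aldoa at 0.0211, Pkm at 0.133 and Slc16a3 at 0.0368, and FPKM Aldoa at 0.0123, Pkm at 0.0191 and Slc16a3 at 0.0136. With voom Pfkfb2 at 0.0294, Pfkfb3 at -0.0709, Tpi1 at -0.0147, Pkm at 0.0017 and Slc16a3 at 0.337 turned. The cause was not tested. Log2 differences that turned with a library left out ran over Aldoa -0.127 to 0.0946, Eno1 -0.0427 to 0.193, Eno3 -0.0026 to 0.449, Gpi1 -0.101 to 0.107, Hk2 -0.138 to 0.024, Ldha -0.0396 to 0.271, Pdk1 -0.0255 to 0.145, Pdk2 -0.0828 to 0.104, Pdk3 -0.159 to 0.0634, Pdk4 -0.0256 to 0.207, Pfkfb2 -0.135 to 0.0603, Pfkfb3 -0.0857 to 0.151, Pfkm -0.12 to 0.368, Pgam1 -0.0571 to 0.421, Pgam2 -0.327 to 0.379, Pgk1 -0.197 to 0.311, Pkm -0.0961 to 0.0771, Slc16a3 -0.0685 to 0.0531 and Tpi1 -0.0662 to 0.115. The Pkm M1 form ran from -0.20 to 0.74 and its share from -0.428 to 1.99 percentage points, and by exon coverage the share differed by 2.32 points. Eno3, Pgam1, Pfkm and Ldha were among those that turned without wild-type replicate 1. Reads shared with copies, overlapping exons and 2 libraries a group limit these values.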
